A study of Mus musculus with 42 samples.

Results

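The genes described here are the spliceosome and splicing factor genes of the mouse. They were picked by name, as the protein coding genes whose symbol starts with Snrp, Sf3a, Sf3b, Srsf, Prpf, Lsm, Hnrnp or U2af, with Snrpn left out. Earlier results of these data were known when this group was chosen. The rule found 80 genes among the 14296 genes measured: 11 Snrp, 3 Sf3a, 6 Sf3b, 3 U2af, 13 Prpf, 13 Lsm, 11 Srsf and 20 Hnrnp genes. One further annotated gene with such a name, Lsmem1, a membrane protein gene outside the LSm family, was not analysed here. Expression was followed in W9.5 embryonic stem (ES) cells of the 129X1/SvJ mouse strain, a line used here at low passage. The cells differentiated spontaneously into embryoid bodies, free-floating aggregates in which the early embryonic lineages form without directed signals, after withdrawal of the self-renewal factor LIF. Duplicate cultures, replicate A and replicate B, were harvested every 6 h from 0 h, the undifferentiated ES cells, to 120 h, which gave 21 time points and 42 libraries. All cultures came from the same cell line with no other treatment, so that the comparisons are between times, and the p-values measure the spread between these duplicate cultures of a single line.

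The spliceosome removes introns from pre-mRNA. Its small nuclear ribonucleoprotein particles (snRNPs) each hold a small RNA and a ring of Sm proteins, encoded by Snrp genes, or of LSm proteins in the case of U6. U1 marks the 5′ splice site, the U2AF dimer reads the end of the intron, and U2 with its SF3a and SF3b subcomplexes is then placed on the branch point. The U4/U6.U5 tri-snRNP, which holds several of the Prpf proteins, joins before catalysis. SR proteins (Srsf) mostly promote the use of the exons they bind, while hnRNP proteins coat pre-mRNA and often oppose it. Many SR and hnRNP genes are known to tune their own mRNA through alternative exons that send it to decay. ES cells divide fast and express these genes at high levels.

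Each value is the log2 of the CPM of a gene in a library, its read count scaled to a fixed library size, made by the authors after normalization between libraries. The 42 libraries held between 10120972 and 51652434 counted reads, with a median of 29692082, and the lowest count of any of the 80 genes in any library was 17 reads. Changes were tested with limma in a single fit over all libraries and genes, and a gene is said to have risen or fallen where its Benjamini-Hochberg adjusted p was under 0.0001. Over the 80 genes the median difference between the duplicates was at most 0.19 log2 at 17 of the 21 time points. The exceptions were 42 h with 0.23, 72 h with 0.32, 90 h with 0.23 and 96 h with 0.37, and these libraries widen the error of every comparison, because the fit pools the spread over the course. Counts of calls are therefore also given without these 4 time points where they differ, an alternative chosen after the values were seen. The 4 were picked by the spread of these same 80 genes, so smaller errors and more calls among them partly follow from that choice. Shares of all genes in that fit are given for 0 to 6 h and 0 to 24 h only. Over all genes the difference was 0.22 at 66 h, which was kept, and 0.2 at 90 h. All 7 pluripotency markers fixed for the check were present at 0 h, with Pou5f1 at 9.98 and Nanog at 8.89 log2 CPM. The levels are those of whole cultures, in which fewer cells of a type and less RNA per cell cannot be told apart.

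At 0 h the levels of the 80 genes differed widely. Length is taken here as all annotated exons of a gene merged, not as that of a transcript, so ranks per kb depend on the annotation. Hnrnpr, with 22199 bases, was below Hnrnpll per kb, at 4.91 and 7.24 CPM per kb, but above it in log2 CPM, at 6.77 and 6.4. Compared per kb of annotated exon, Hnrnpa1, a major hnRNP protein that binds exonic silencers, was the highest at 489 CPM per kb, followed by Hnrnpab at 264 CPM per kb. Srsf5 led the SR genes with 130 CPM per kb, Snrpf the Snrp genes with 109, Prpf8 the Prpf genes with 100.0 and Lsm4 the Lsm genes with 88.1 CPM per kb. U2af1, the small U2AF subunit, stood at 78.5, Sf3b2 at 61.5 and Sf3a3 at 47.0 CPM per kb, each the highest of its subfamily. The lowest of the Sm ring was Snrpg with 34.3, of U2AF U2af1l4 with 10.8, of SF3a Sf3a2 with 26.4, of SF3b Sf3b5 with 15.4 and of the LSm2-8 ring Lsm8 with 8.13 CPM per kb. The lowest of all 80 was Srsf12 with 0.909 CPM per kb, followed by Lsm11, a subunit of the U7 particle of histone mRNA processing, with 2.8 CPM per kb. Exons of Snrpf overlapped those of opposite-strand genes over 85.4% of their length, and its level is uncertain to that extent, because the strand setting of the counting was not given in the sources used here. Small Sm and LSm genes and Hnrnpa1 also have processed copies elsewhere in the genome, and how reads shared with these were counted is not stated.

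The first 6 h brought a rise in the summed level of the splicing genes. The 80 genes together held 21301 and 20895 CPM in replicates A and B at 0 h, and 30294 and 30134 CPM at 6 h, 1.43 times as much on average. Their share of the counted reads, which leaves out the normalization between libraries, rose less, from 2.31% and 2.27% to 2.81% and 2.82%. Much of the sum was that of the 20 hnRNP genes, with 11803 and 11451 CPM at 0 h and 16983 and 16812 at 6 h. The 11 SR genes held 2846 and 2913 CPM and then 5083 and 5003. The sum of the 80 genes then stayed between 29333 and 34304 CPM in every library to 48 h. From 0 to 6 h, 13 of the 80 genes rose and 2 fell, with a median change of 0.35 log2 over the 80 genes and of -0.05 over all 14296 genes. The sign of the change was the same in both replicates in 78 of 80, a count that was not made for all genes. Genes that rose made up 16.2% of the splicing genes and 11.8% of all genes, or 15.4% of the 7829 genes that averaged 4 log2 CPM or more over the course, as 77 of the 80 did. The share that rose was thus close to that of other well expressed genes. Genes that fell made up 2.5% of the splicing genes, 14.5% of all genes and 11.3% of the well expressed ones. At an adjusted p under 0.05, 41 splicing genes were higher and 5 lower, where 27.0% of all genes were higher and 31.1% lower.

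These numbers moved with the libraries and the scaling used. Without the time points of 42, 72, 90 and 96 h, 30 splicing genes (37.5%) rose and 4 fell from 0 to 6 h, beside 16.5% of all genes higher and 18.6% lower. Scaling by total reads alone shifted the median of all genes from -0.05 to -0.27 and gave 13 splicing genes higher and 4 lower, and quantile normalization gave 10 higher and 2 lower. Relative to the median of all genes, the splicing genes were higher by 0.40 in the main fit and with total read scaling, and by 0.17 with quantile normalization. Marker genes of other cells were read beside this rise. The summed level of 5 fibroblast markers went from 24.2 and 28.0 CPM at 0 h to 12.1 and 11.8 CPM at 6 h, and that of 3 neuroectoderm markers from 17.7 and 14.4 to 63.2 and 57.6 CPM. The members of a list did not all move alike. Of the fibroblast markers 2 were higher and 3 lower, and Thy1, the highest, went from 4.37 to 3.3 log2 CPM on average. Of the neuroectoderm markers Nes went from 3.64 to 5.8 and Pax6 from -3.62 to 0.52, while Sox1 was at 1.77 and then 1.71. The 7 pluripotency markers together went from 3850 and 4090 to 4610 and 4660 CPM. Of these 4 were higher and 3 lower, with Zfp42 from 9.18 to 10.07 and Klf4 from 8.43 to 7.11. Markers of the primitive streak stood at 14.8 and 13.8 CPM and then 15 and 16.3 CPM, and those of endoderm at 2.54 and 3.36 and then 2.61 and 3.85 CPM. Their part in the rise was not tested.

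**Figure D1:**
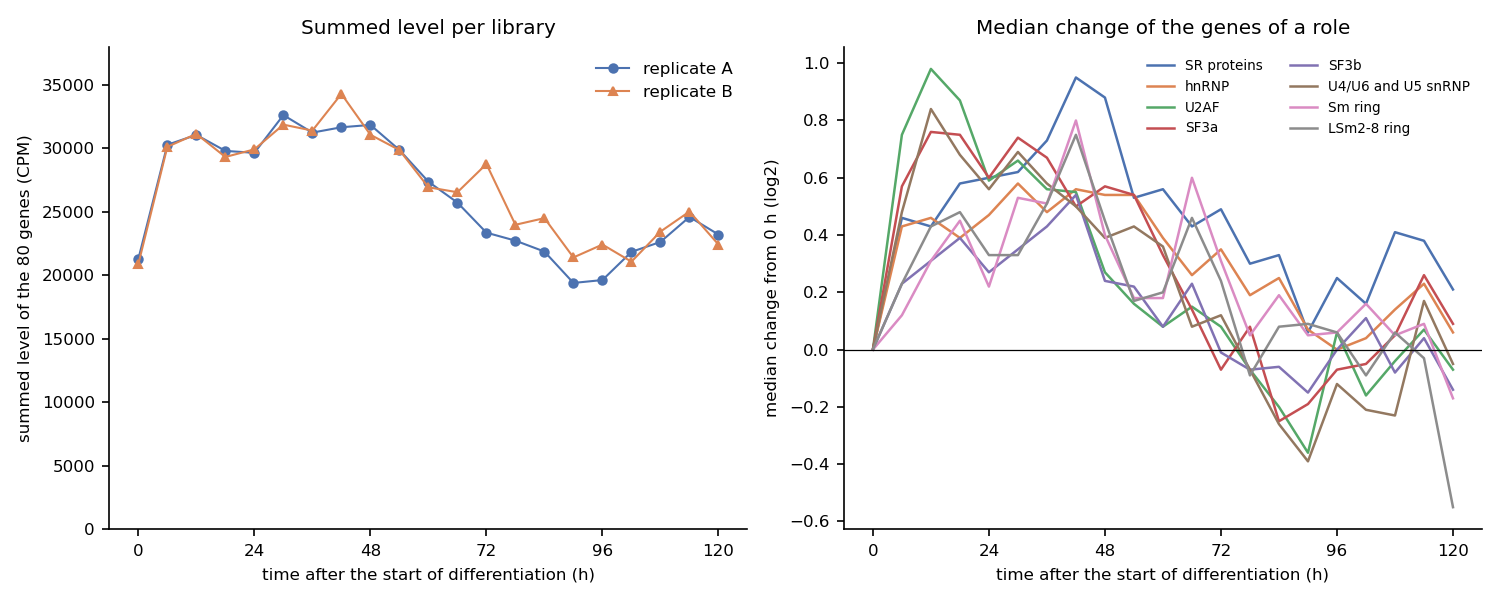
Left: summed level of the 80 splicing genes in CPM against time in h, with a line for each replicate. Right: median log2 change from 0 h of the genes of 8 roles, from the mean of the duplicates. The sum rises from 21098 to 30214 CPM on average at 6 h, holds to 48 h and returns to 20407 CPM on average at 90 h, and U2AF reaches the largest early median, 0.98 at 12 h.

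More genes passed the threshold at 12 h than at 6 h. From 6 to 12 h itself 1 gene rose and 1 fell, beside 1.47% and 2.88% of all genes. From 0 to 12 h, 26 genes rose and 1 fell, with a median change of 0.43, where 10.6% of all genes rose and 15.6% fell. With 1 library left out the number that rose was 14 or 15, with quantile normalization it was 15, and without the 4 time points of wide spread it was 35. From 0 to 18 h, 19 rose and 1 fell beside 7.87% and 12.6% of all genes. Here 6 to 8 rose with 1 library left out, 9 with quantile normalization and 33 without the 4 time points. Shares of all genes without the 4 time points are not given for 12 and 18 h. At 6 h that fit raised the share of all genes that rose from 11.8% to 16.5%. From 0 to 24 h, 21 rose (26.2%) and 1 fell with a median of 0.44, beside 9.9% and 12.8% of all genes and 12.9% and 8.98% of the well expressed ones. At an adjusted p under 0.05 the 24 h counts were 43 higher and 3 lower, beside 26.0% and 29.6% of all genes. Without the 4 time points of wide spread, 32 rose and 2 fell at 24 h, beside 14.8% and 16.7% of all genes. The count at 24 h fell to between 8 and 10 genes that rose when a library of 0 h or 24 h was left out, 13 with total read scaling and 11 with quantile normalization. The comparisons from 0 h share the same 2 libraries of 0 h, so that they are not independent of each other.

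The subfamilies differed in how many members passed. From 0 to 6 h, 5 of 11 Srsf genes rose, 6 of 20 Hnrnp genes rose and 1 fell, 1 of 6 Sf3b genes rose, 1 of 13 Prpf genes rose and 1 fell, and 0 of 11 Snrp, 0 of 13 Lsm, 0 of 3 Sf3a and 0 of 3 U2af genes were called by limma. Of all genes 11.8% rose and 14.5% fell over these hours. At an unadjusted p under 0.05, 3 Snrp genes were higher and 1 lower, and 4 Lsm genes were higher and 3 lower, while all 3 Sf3a and all 3 U2af genes were higher. Shares of all genes at an unadjusted p were not counted. The median change was 0.75 for the U2af genes, 0.57 for Sf3a, 0.46 for Srsf, 0.43 for Hnrnp, 0.29 for Prpf, 0.23 for Sf3b, 0.18 for Lsm and 0.12 for Snrp. The errors differed too: the median standard error (SE) of a change was 0.20 log2 for the Snrp genes, 0.18 for Lsm, 0.14 for Sf3a and 0.12 for Hnrnp. Without the 4 time points of wide spread these errors were 0.15, 0.11, 0.07 and 0.08, and then 2 Snrp, 2 Lsm, 3 Sf3a and 3 U2af genes rose and 2 Lsm genes fell. The order of the medians was not tested.

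**Figure D2:**
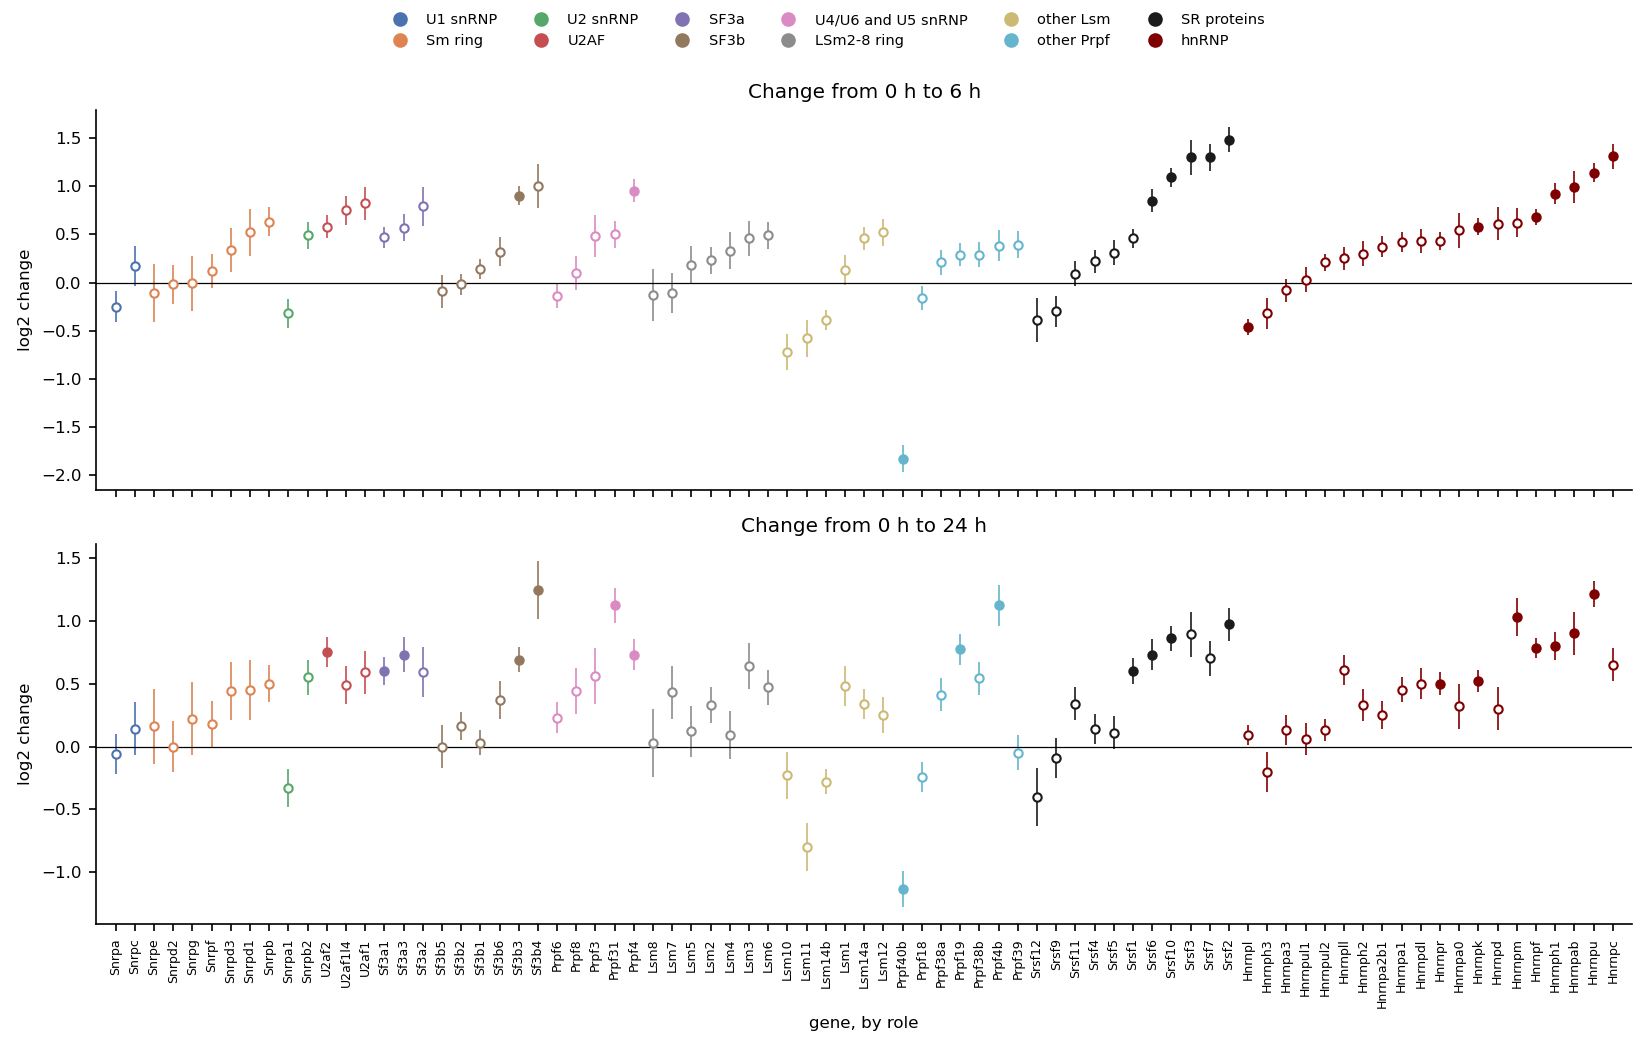
Log2 change of the splicing genes, with 1 gene not shown, from 0 h to 6 h (top) and from 0 h to 24 h (bottom), grouped by role, with bars of 1 SE. Filled points passed an adjusted p under 0.0001. SR and hnRNP genes hold most of the filled points at 6 h, Sm and LSm genes have open points only in both panels, and Prpf40b lies lowest at both times.

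Of the SR protein genes, 5 of 11 rose in 6 h, or 6 without the 4 time points of wide spread. Srsf2 (SC35), a nuclear speckle protein that acts in early spliceosome assembly, had the largest rise of the 80 genes at 6 h and stood at 8.34 and 8.43 log2 CPM in replicates A and B at 0 h and at 9.85 and 9.88 at 6 h. Both libraries of 6 h lay above both of 0 h, and the rise was 1.48 ± 0.13 (SE), or 2.79-fold (adjusted p = 4.86e-10). Its level was lower again at 12 h, 9.46 in both replicates, and stood at 9.37 and 9.34 at 24 h. Srsf3, the smallest SR protein, which also takes part in mRNA export, went from 8.27 and 8.41 to 9.64 in both replicates, a rise of 1.3 ± 0.18 (adjusted p = 8.71e-07). Srsf7 went from 7.60 and 7.70 to 8.97 and 8.93, a rise of 1.3 ± 0.14 (adjusted p = 1.91e-08). Srsf7 alone among the 80 genes then fell between 6 and 12 h, to 8.09 and 8.07. That drop of 0.88 ± 0.14 (adjusted p = 4.9e-05) passed neither with another scaling nor with any of the 4 libraries left out. From 6 to 12 h, a step added after the values were seen, 1 splicing gene fell and 1 rose, where 2.88% of all genes fell and 1.47% rose.

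Srsf10, which represses splicing when dephosphorylated by stress, rose by 1.09 ± 0.10 in 6 h, from 7.58 and 7.53 to 8.74 and 8.55. Srsf6 rose by 0.85 ± 0.12, from 8.18 and 8.24 to 9.04 and 9.09, a call lost without replicate A of 0 h and with quantile normalization. Srsf1 (SF2/ASF), the founding member of the family, was at 9.01 and 9.08 at 0 h, 9.52 and 9.48 at 6 h and 9.85 and 9.80 at 12 h. Its change of 0.46 at 6 h did not pass (adjusted p = 2.71e-04), while that of 0.78 ± 0.10 at 12 h did (adjusted p = 1.67e-07). The other 5 SR genes, Srsf4, Srsf5, Srsf9, Srsf11 and Srsf12, changed by between -0.39 and 0.31 at 6 h and did not pass. At 24 h, 4 SR genes remained higher than at 0 h by the test: Srsf2 by 0.97, Srsf10 by 0.86, Srsf6 by 0.73 and Srsf1 by 0.60. The calls of Srsf6 and Srsf1 at 24 h were lost with any of the 4 libraries left out and with both other scalings. Srsf3, with 0.89 ± 0.18, and Srsf7, with 0.70 ± 0.14, missed the threshold there (adjusted p = 1.82e-04 and 1.72e-04), and both passed without the 4 time points of wide spread. Exons of Srsf2 overlap opposite-strand genes over 25.3% of their length, and those of Srsf4 over 43.0%.

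**Figure D3:**
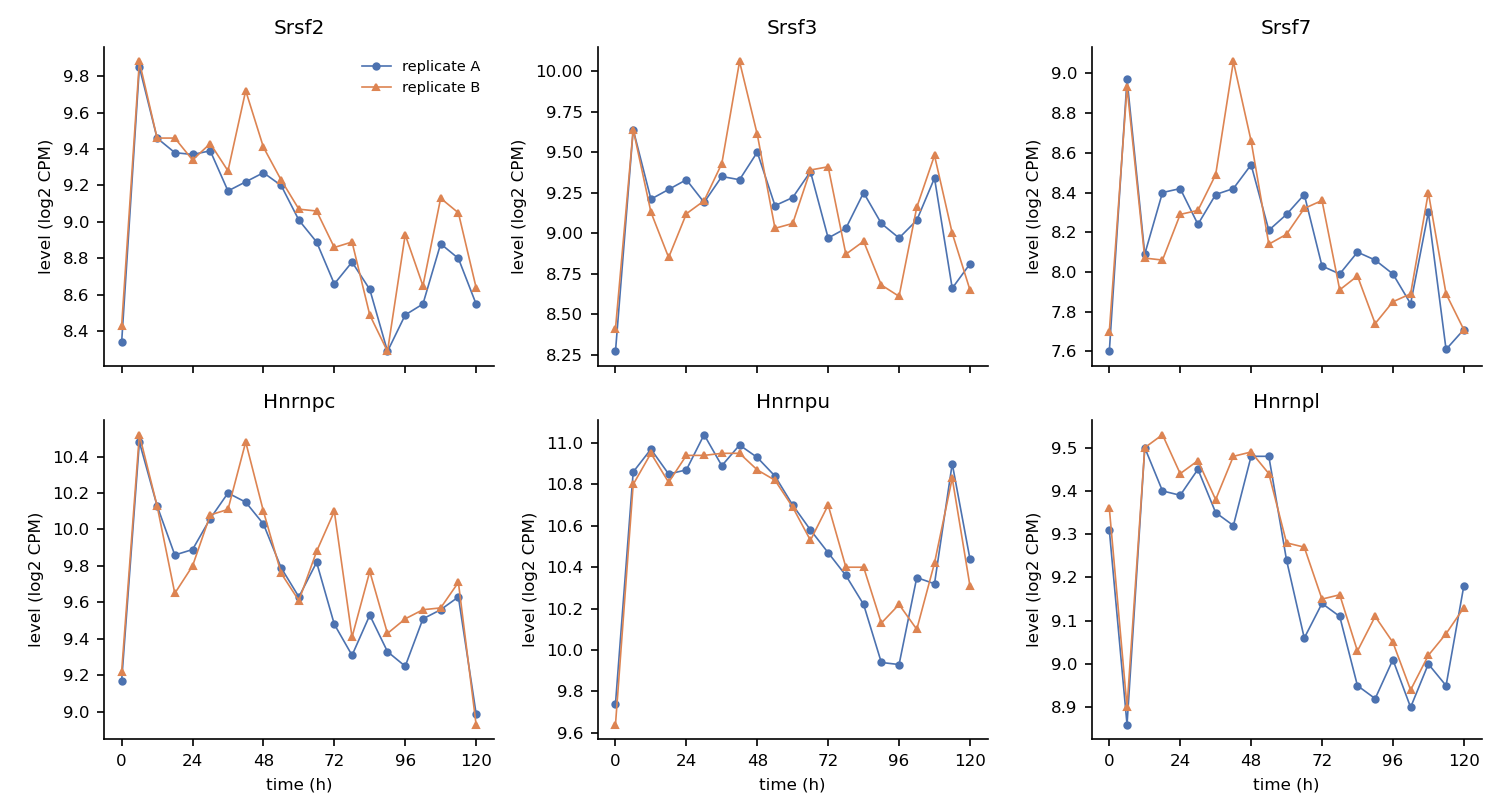
Level in log2 CPM against time in h of 3 SR and 3 hnRNP genes, with a point for each library of replicates A and B. Srsf2, Srsf7 and Hnrnpc are at their highest mean at 6 h, Srsf3 at 42 h and Hnrnpu at 30 h, and Hnrnpl is at its lowest at 6 h.

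Upstream sequence from RefSeq (GRCm38.p6) was at hand for 68 of the 80 genes. The stretches shown belong to 3 of the fastest risers and to Prpf40b, which fell furthest. Each ends at the base before the most upstream annotated start and is written on the strand of the gene, 5′ to 3′. Capitals mark the letters of the motifs searched, on either strand. These were CCAAT for the box of that name, GGGCGG for the binding box of the Sp1 family, called GC box here, TATAAA for the start-site box of the TBP factor, CACGTG for the E-box, CCGGAAG for the ETS family and GCATGCG for the core of the NRF1 motif. The lines give, in turn, chr11:116853095-116853214 (minus strand), chr17:80207308-80207427 (minus), chr14:52104029-52104148 (minus) and chr15:99294991-99295086 (plus).
Srsf2: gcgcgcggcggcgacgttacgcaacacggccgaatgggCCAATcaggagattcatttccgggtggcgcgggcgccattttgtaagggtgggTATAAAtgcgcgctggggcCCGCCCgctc
Srsf7: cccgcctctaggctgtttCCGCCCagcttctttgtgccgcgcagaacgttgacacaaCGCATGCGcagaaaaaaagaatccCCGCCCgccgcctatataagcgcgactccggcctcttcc
Hnrnpc: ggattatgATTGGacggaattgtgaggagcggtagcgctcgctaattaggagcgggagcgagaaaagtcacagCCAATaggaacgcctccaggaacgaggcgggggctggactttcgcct
Prpf40b: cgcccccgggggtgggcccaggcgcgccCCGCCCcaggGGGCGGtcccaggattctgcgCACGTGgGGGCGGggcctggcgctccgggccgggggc

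The 4 stretches had no motif in common. Srsf2 held a CCAAT, a GC and a TATA box, Srsf7 an NRF1 core and GC boxes, Hnrnpc CCAAT boxes only and Prpf40b an E-box and GC boxes. Over the 250 bases upstream of the RefSeq start, the ETS letters were present in 18 of the 68 genes (26.5%), in 13.5% of the 10362 protein coding genes in the files with such an entry and in 6.91% of all 32851 entries. The NRF1 core was in 8.82% of the splicing genes and 5.56% of the coding genes in the files, or 3.02% of all entries. CCAAT was in 45.6%, 36.6% and 33.8%, the GC box in 66.2%, 61.3% and 32.7%, the E-box in 7.35%, 8.52% and 6.02%, and TATAAA in 7.35%, 5.98% and 12.4%. The 18 with the ETS letters took in all 3 SF3a genes, 3 SF3b genes and 4 SR genes, among them Srsf7, whose match lies outside the stretch shown. These are counts of letters, and binding was not measured.

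Among the hnRNP genes, 6 rose and 1 fell in 6 h, and 13 did not pass. The counts were 10 and 1 without the 4 time points of wide spread. Hnrnpc, which binds uridine tracts of nascent RNA, went from 9.17 and 9.22 log2 CPM at 0 h to 10.48 and 10.52 at 6 h, a rise of 1.31 ± 0.13, or 2.48-fold (adjusted p = 3.88e-09). At 24 h it was at 9.89 and 9.80, and the remaining difference of 0.65 ± 0.13 from 0 h missed the threshold (adjusted p = 1.47e-04). Hnrnpu (SAF-A), a nuclear matrix protein that binds RNA and DNA, went from 9.74 and 9.64 to 10.86 and 10.80, a rise of 1.14 ± 0.10 (adjusted p = 7.81e-10). Unlike Hnrnpc it stayed there, at 10.87 and 10.94 at 24 h, and only Hnrnpu and Hnrnph1 of the hnRNP genes were called in each of the 5 comparisons with 0 h.

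Hnrnpab rose by 0.99 ± 0.17, Hnrnph1, which binds G-rich stretches, by 0.92 ± 0.11, Hnrnpf, its close relative, by 0.68 ± 0.08, and Hnrnpk, which binds C-rich stretches, by 0.58 ± 0.09. The call of Hnrnpab was lost when any of the 4 libraries was left out, that of Hnrnpk without either library of 0 h, without replicate A of 6 h and with quantile normalization, and that of Hnrnpf with quantile normalization alone. Exons of Hnrnpab and Hnrnpf overlap opposite-strand genes over 29.1% and 26.5% of their length.

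Hnrnpl, which binds CA repeats, was the one hnRNP gene that fell by the test from 0 to 6 h. It went from 9.31 and 9.36 at 0 h to 8.86 and 8.90 at 6 h and was back at 9.50 in both replicates at 12 h. The fall of 0.46 ± 0.08 (adjusted p = 2.32e-05) was lost with any of the 4 libraries left out, and the rise of 0.62 ± 0.08 from 6 to 12 h (adjusted p = 1.63e-06) was lost without replicate A of 6 h. All 4 libraries of 0 and 12 h lay above both of 6 h. Its paralog Hnrnpll, a regulator of exon skipping known from lymphocytes, was at 6.41 and 6.40 at 0 h and 6.76 and 6.55 at 6 h, and its change of 0.25 ± 0.12 did not pass.

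Further hnRNP genes passed at 12 h. Hnrnpm went from 8.49 and 8.44 at 0 h to 9.07 and 9.10 at 6 h and 9.45 and 9.50 at 12 h, with a rise of 1.01 ± 0.15 at 12 h and of 1.03 ± 0.15 at 24 h, both lost without replicate B of 0 h or replicate B of the later time. Its exons overlap a gene of the same strand over 14.7% of their length. Hnrnpa1, the highest per kb, was at 10.63 and 10.55 at 0 h and 11.25 and 11.22 at 12 h, a rise of 0.64 ± 0.10, and Hnrnpdl rose by 0.63 ± 0.12. Both calls were lost with any of the 4 libraries left out and with both other scalings. At 24 h Hnrnpa1 was at 11.07 and 11.01 and was not called. Its partners of the A/B group, Hnrnpa2b1 and Hnrnpa3, changed by 0.25 and 0.13 at 24 h, neither past the threshold. Hnrnpr, the lowest of the hnRNP genes per kb at 0 h with 4.91 CPM per kb, rose by 0.64 ± 0.09 at 12 h. Hnrnph3 was lower at 6, 12 and 24 h, by -0.32, -0.38 and -0.20, and did not pass at any of them. The hnRNP genes Hnrnpa0, Hnrnpd, Hnrnph2, Hnrnpul1 and Hnrnpul2 changed by between 0.03 and 0.61 at 6 h and between 0.06 and 0.33 at 24 h, with no call.

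The 3 U2AF genes all passed at 12 h. U2af1 went from 7.64 and 7.71 log2 CPM at 0 h to 8.42 and 8.56 at 6 h and 8.62 and 8.68 at 12 h. U2af2, the large subunit, went from 8.19 and 8.27 to 8.75 and 8.87 and then 9.14 and 9.10, and U2af1l4, a paralog of the small subunit, from 4.15 and 4.17 to 4.90 and 4.92 and then 5.15 and 5.13. In each of the 3 genes both libraries of 6 h and 12 h lay above both of 0 h. The rises at 12 h were 0.98 ± 0.17, 0.89 ± 0.12 and 0.98 ± 0.15 in that order, and those at 6 h, of 0.82, 0.58 and 0.75, missed the threshold (adjusted p from 1.38e-04 to 2.82e-04). At 24 h only U2af2 was still called, with 0.75 ± 0.12. At 12 h the calls of U2af1 and U2af1l4 were lost with any 1 of the 4 libraries left out, while that of U2af2 was not. Quantile normalization ended those of U2af1 and U2af2, and the call of U2af2 at 24 h was lost with any library left out and with both other scalings. Exons of U2af1l4 overlap other genes over 66.1% of their length, on either strand.

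The 3 SF3a genes, whose products form a heterotrimer that completes the U2 particle, passed at 12 h as well: Sf3a2 with 1.04 ± 0.20, Sf3a3 with 0.76 ± 0.14 and Sf3a1 with 0.62 ± 0.11. Sf3a1 stood at 7.54 and 7.47 at 0 h, 7.95 and 8.0 at 6 h, and 8.12 and 8.15 at 12 h. Each of these 3 calls was lost when any of the 4 libraries was left out and with quantile normalization, those of Sf3a2 and Sf3a1 also with total read scaling, and each gene was also called at 6 h without the 4 time points of wide spread.

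The SF3b genes split. Sf3b3, a scaffold subunit, went from 8.82 and 8.75 at 0 h to 9.70 and 9.66 at 6 h, a rise of 0.90 ± 0.10 (adjusted p = 1.83e-08), and stood at 9.47 and 9.49 at 24 h. Sf3b4, which contacts pre-mRNA next to the branch point, went from 6.04 and 6.10 to 6.96 and 7.18 at 6 h and 7.50 and 7.57 at 12 h. Its rise of 1.46 ± 0.23 at 12 h was the largest of the 80 genes, as was that of 1.24 ± 0.23 at 24 h, while that of 1.0 ± 0.23 at 6 h missed the threshold (adjusted p = 4.45e-04). The call at 12 h was lost without replicate A of 0 h or replicate B of 12 h, and that at 24 h with any of the 4 libraries left out and with both other scalings. Sf3b1, the subunit that clamps the branch point and is often mutated in leukaemias, was at 9.02 and 8.94 at 0 h, 9.20 and 9.03 at 6 h and 9.03 and 8.98 at 24 h. Its change at 24 h was 0.03 ± 0.10, and those of Sf3b2, Sf3b5 and Sf3b6 were 0.16, 0.00 and 0.37, none past the threshold. The 6 subunits, which form 1 complex, thus ranged from 0.00 to 1.24 log2 at 24 h.

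In the tri-snRNP, Prpf4 and Prpf31 rose and Prpf8 and Prpf6 did not pass. Prpf4, a U4/U6 protein, went from 5.89 and 6.08 to 6.94 and 6.93 at 6 h, a rise of 0.95 ± 0.12 (adjusted p = 9.81e-08). Prpf31, which bridges U4/U6 and U5 and is a gene of inherited retinal degeneration, went from 6.11 and 6.06 at 0 h to 6.56 and 6.62 at 6 h and 7.30 and 7.17 at 12 h. Its rise was 1.15 ± 0.14 at 12 h, 1.22 ± 0.14 at 18 h and 1.12 ± 0.14 at 24 h, each called under every setting tried and with any 1 library left out. Prpf8, the large core protein of U5, was at 9.65 and 9.44 at 0 h and 9.98 and 9.99 at 24 h, a change of 0.44 ± 0.18 that did not pass, and Prpf6 changed by 0.23 ± 0.12. Prpf3, of the U4/U6 particle, was at 6.90 and 6.71 at 0 h and 7.61 and 7.67 at 12 h, higher by 0.84 ± 0.22 without passing. Exons of Prpf31 overlap an opposite-strand gene over 18.1% of their length.

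Prpf40b, a homolog of a yeast U1 protein, fell furthest of the 80 genes. It was at 6.43 and 6.44 log2 CPM at 0 h, its highest mean of the course, and at 4.52 and 4.69 at 6 h, its lowest. That fall of 1.83 ± 0.14, or 3.56-fold, was the largest change of any of the 80 genes (adjusted p = 4.17e-11), and it was called under every setting and with any library left out. Prpf40b was at 4.96 in both replicates at 12 h, at 5.19 and 5.43 at 24 h and at 5.97 and 5.96 at 120 h. Its level at 24 h was below that at 0 h by -1.13 ± 0.14 (adjusted p = 2.88e-07). Both libraries of every later time up to 48 h lay below both of 0 h.

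Among the remaining Prpf genes, Prpf4b, a kinase that acts on the spliceosome, went from 6.56 and 6.36 at 0 h to 7.59 and 7.57 at 24 h, a rise of 1.12 ± 0.16 that was lost only without replicate B of 0 h. Prpf19, a ubiquitin ligase needed for catalytic activation, went from 7.54 and 7.62 to 8.34 and 8.35, a rise of 0.77 ± 0.12 that was lost without replicate A of 0 h, without either library of 24 h and with quantile normalization. Prpf18, which acts in the second step of splicing, was at 5.63 and 5.70 at 0 h and 5.43 in both replicates at 24 h, and did not pass. Prpf39, the lowest of the Prpf genes per kb at 0 h with 6.22 CPM per kb, was higher by 0.39 ± 0.14 at 6 h and changed by -0.05 at 24 h, neither past the threshold. Prpf38a, which is needed for spliceosome activation, and its relative Prpf38b were higher by 0.41 ± 0.13 and 0.54 ± 0.13 at 24 h and did not pass.

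**Figure D4:**
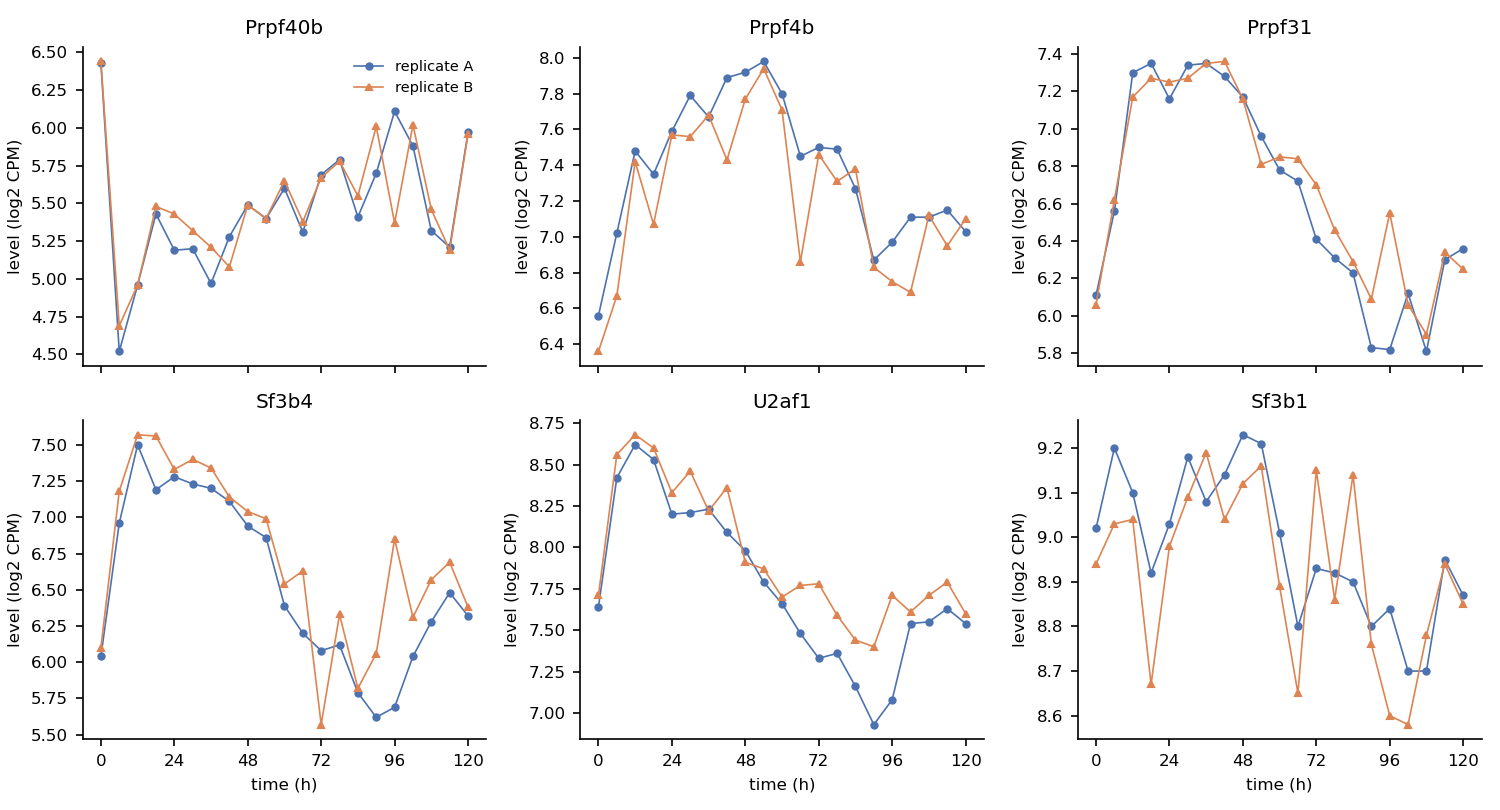
Level in log2 CPM against time in h of Prpf40b, Prpf4b, Prpf31, Sf3b4, U2af1 and Sf3b1, with a point for each library. Prpf40b drops from 6.44 to 4.61 on average at 6 h while Prpf4b and Prpf31 climb to 12 h, and the range of the time means of Sf3b1 over the course, 0.54 log2, is narrow.

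None of the 7 genes of the Sm ring, which is part of U1, U2, U4 and U5, passed in the first day. Limma called 0 at 6, 12, 18 or 24 h, and at an unadjusted p under 0.05 the numbers higher were 2, 3, 4 and 1, with 0 lower. Of all genes 11.8%, 10.6%, 7.87% and 9.9% rose and 14.5%, 15.6%, 12.6% and 12.8% fell at these times. Beside such shares, 0 of 7 genes does not set the ring apart. At 18 h the median change was 0.45 with 7 of 7 positive, and 4 were higher at an adjusted p under 0.05. Snrpb, which encodes SmB and is known to control its own mRNA through a decay exon, had the largest change of the ring at 6 h, from 7.13 and 7.33 at 0 h to 7.79 and 7.93, or 0.63 ± 0.15 (adjusted p = 8.84e-04). Snrpe was at 6.28 and 6.37 at 0 h and at 6.18 and 6.26 at 6 h, a change of -0.11 ± 0.30, and Snrpd2 changed by -0.02 ± 0.20. Snrpd1 and Snrpd3 were higher at 6 h by 0.52 ± 0.24 and 0.34 ± 0.23, Snrpf by 0.12 ± 0.18, and Snrpg changed by -0.01 ± 0.29. The SE of 0.30 for Snrpe leaves room for changes of the size seen in other groups. At 18 h Snrpd3, at 7.14 and 7.07 at 0 h, had reached 7.73 and 7.93, a difference of 0.73 ± 0.23 that missed the threshold (adjusted p = 0.00866). Without the 4 time points of wide spread Snrpb alone of the 7 rose, at 6, 12 and 18 h, and 0 at 24 h.

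The LSm2-8 ring, which binds the end of U6, had 0 of 7 genes called by limma at 6, 12, 18 and 24 h, where 2, 4, 5 and 3 were higher and 0 lower at an unadjusted p under 0.05. Beside the shares of all genes given for the Sm ring, 0 of 7 does not set this ring apart either. At 18 h the median change was 0.48, and 4 were higher at an adjusted p under 0.05. Without the 4 time points of wide spread 0 rose at 6 h, Lsm3 and Lsm6 at 12 h, Lsm2 and Lsm3 at 18 h, and Lsm3 at 24 h. Lsm3 was at 6.30 and 6.26 at 0 h and 7.14 and 7.03 at 18 h, a change of 0.81 ± 0.18 (adjusted p = 5.73e-04), and at 6.91 and 6.93 at 24 h, a change of 0.64 ± 0.18 (adjusted p = 0.00437). Lsm8 changed by 0.03 ± 0.27. Lsm2, Lsm4, Lsm5, Lsm6 and Lsm7 differed from 0 h by 0.09 to 0.47 at 24 h. The Lsm genes outside the ring, which act mainly in mRNA decay, translation or histone mRNA processing, also had 0 of 6 called, with 2 higher and 3 lower at 6 h at an unadjusted p under 0.05. A count of 0 among 6 genes is likewise not unusual beside all genes. Lsm1, the subunit that sets the cytoplasmic ring of mRNA decay apart from that of U6, was higher by 0.48 ± 0.16 at 24 h. Lsm10 and Lsm11, both of the U7 particle, were lower at 6 h by -0.72 ± 0.19 and -0.58 ± 0.19 (adjusted p = 0.00192 and 0.00907). Lsm10 was at 3.5 and 3.47 at 0 h and 2.66 and 2.88 at 6 h, so that its duplicates did not overlap. Lsm12 and Lsm14a were higher at 6 h by 0.52 and 0.46, and these 2 passed without the 4 time points of wide spread, as did falls of Lsm10 and Lsm14b. Lsm11 and Lsm14b fell in that fit at 12 h, and Lsm11 alone at 18 and 24 h.

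The genes of proteins specific to U1 and U2 showed no call by limma at 6, 12, 18 or 24 h either. At an unadjusted p under 0.05, 1 was higher and 1 lower at 6 h. With 2 genes for each particle, this does not set them apart from all genes. Snrpa, of U1, was at 7.57 and 7.62 at 0 h and 7.27 and 7.41 at 6 h, a change of -0.25 ± 0.16, and Snrpc, its neighbour in U1, changed by 0.17 ± 0.21. Snrpb2, of U2, was higher by 0.49 ± 0.14 at 6 h (adjusted p = 0.00361), and its binding partner Snrpa1 lower by -0.32 ± 0.15. Both libraries of Snrpb2 at 6 h, 6.78 and 6.81, lay above those of 0 h, 6.25 and 6.36, and both of Snrpa1 at 6 h, 6.62 and 6.64, lay below those of 0 h, 6.92 and 6.98. Snrpb2 rose at 6, 12, 18 and 24 h without the 4 time points of wide spread.

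**Figure D5:**
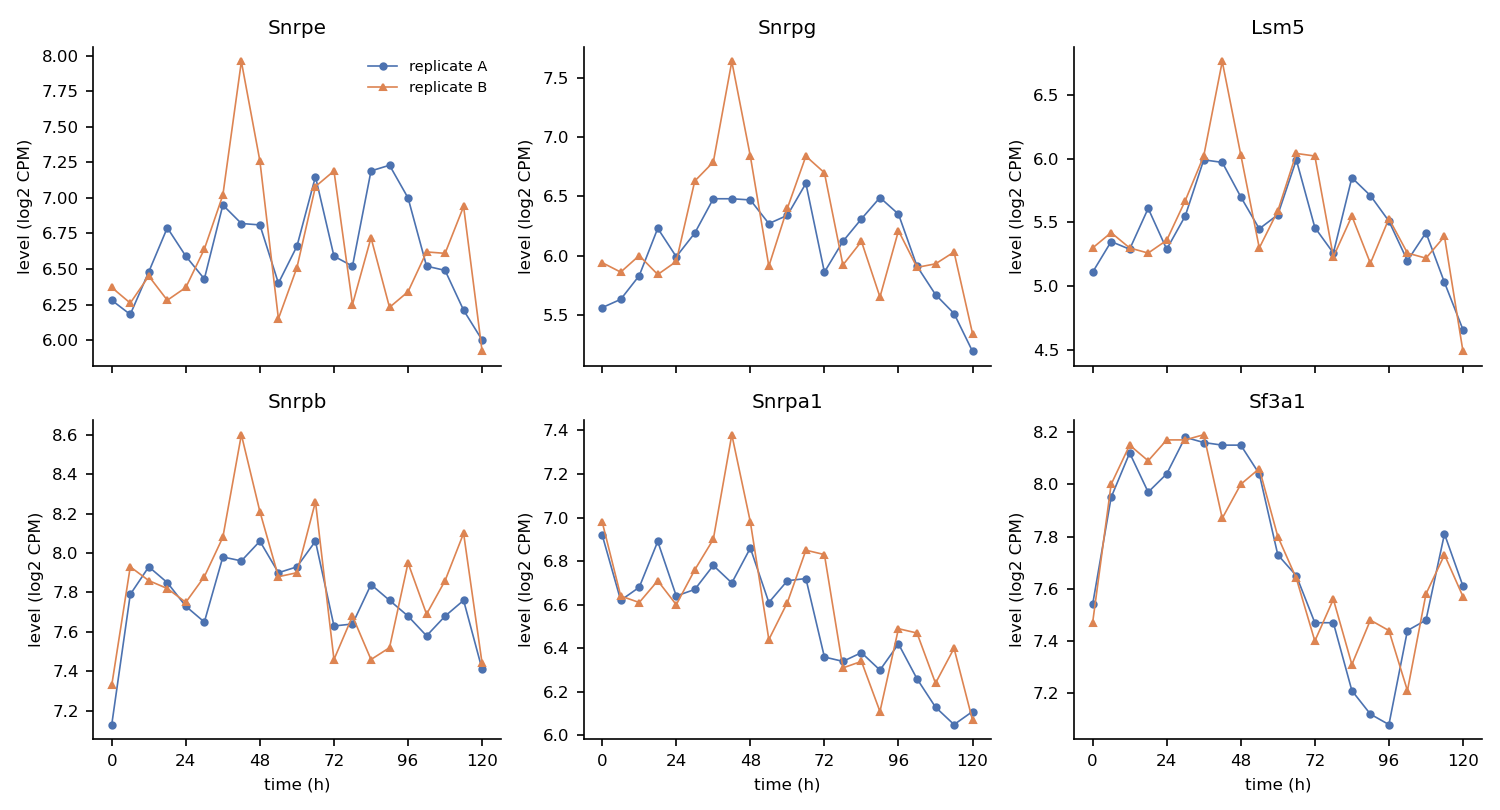
Level in log2 CPM against time in h of Snrpe, Snrpg, Lsm5, Snrpb and Snrpa1, with Sf3a1 for comparison, with a point for each library. Replicate B of 42 h stands above its duplicate in the first 5 panels, at 7.96 against 6.82 for Snrpe, and below it for Sf3a1.

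At 42 h the duplicates of the Sm and LSm2-8 rings and of the U2 proteins lay wide apart. Snrpe was at 6.82 (A) and 7.96 (B), Snrpg at 6.48 and 7.64, and Lsm5 at 5.97 and 6.76. The median difference of B from A at 42 h was 0.65 over the Sm ring, 0.61 over the 2 U2 genes, 0.57 over the LSm2-8 ring, 0.06 over the hnRNP genes and -0.01 over all genes. It was 0.65 over 81 cytosolic ribosomal protein genes and 0.49 over 231 coding genes with under 1 kb of exon, both sets chosen after the values were seen. At 96 h the Sm ring differed less, by 0.27, and U2AF by 0.63. The order turned at 90 h, where Snrpe was at 7.23 in A and 6.23 in B. Highest means at 42 h, which many of these genes have, rest on that library, and the part of gene length in it was not tested.

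Few further changes passed between 6 and 48 h. From 6 to 24 h, Hnrnpl alone rose, by 0.54 ± 0.08, and 0 genes fell, where 5.64% of all genes rose and 5.76% fell. At an adjusted p under 0.05, 11 were higher and 4 lower, and at an unadjusted one 12 and 7. The larger differences that missed the threshold were those of Prpf4b with 0.74, Prpf31 with 0.62, Hnrnpc with -0.66 and Srsf7 with -0.60. Without the 4 time points of wide spread 4 genes rose, Hnrnpl, Prpf19, Prpf31 and Prpf40b, and 3 fell, Hnrnpc, Srsf2 and Srsf7. The call of Hnrnpl was lost with any of the 4 libraries left out, and with the replicate block 2 genes rose. From 24 to 48 h limma called 0 of the 80 genes in either direction, with 9 higher and 2 lower at an unadjusted p under 0.05, beside 5.27% of all genes that rose and 3.7% that fell. The median change was 0.06 and 0.04 log2 in the 2 steps.

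From 48 to 72 h the median change of the splicing genes was -0.26, beside 0.01 over all genes. By the test 5 genes (6.25%) fell and 0 rose, with 2 higher and 38 lower at an unadjusted p under 0.05. Among all genes 3.78% fell and 5.6% rose, and among the well expressed ones 5.74% fell and 3.53% rose. The share that fell was thus close to that of other well expressed genes. Shares of all genes at an unadjusted p were not counted. The 5 were U2af2, from 9.09 and 9.10 to 8.41 and 8.31, Prpf4, from 6.75 and 6.84 to 6.20 and 6.02, Prpf19, from 8.33 and 8.44 to 7.82 and 7.60, Sf3a1, from 8.15 and 8.0 to 7.47 and 7.40, and Sf3b3, from 9.52 and 9.42 to 8.93 and 8.85. They fell by 0.74, 0.68, 0.67, 0.64 and 0.58 log2, with SEs of 0.10 to 0.12. All 5 had risen from 0 to 12 h. With total read scaling, which raised the median of all genes to 0.16, or with quantile normalization, 0 genes fell, and without a library of 48 or 72 h at most 1 did. The median of the splicing genes was -0.11 and -0.08 under these scalings. The 72 h libraries differ, with summed levels of 23366 CPM (A) and 28777 CPM (B).

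The sum reached its lowest mean at 90 h, 19402 CPM (A) and 21412 CPM (B), close to that of 0 h, and stood at 23215 and 22429 CPM at 120 h. The means of 31 genes were lowest between 78 and 96 h (38.8%, and 12.7% of all genes) and of 24 between 102 and 120 h (30.0% and 22.1%). Many of the 31 were lowest at 90 or 96 h, where the duplicates lay wide apart. The lowest means were not counted again without these times. Highest means lay between 30 and 48 h in 42 genes (52.5% and 14.9%) and between 6 and 24 h in 25 (31.2% and 22.6%). Of the 42 genes, 29 were highest at 42 h, where replicate B stands apart. With 42 h left out, a choice made after the values were seen, 30 genes (37.5%, and 11.3% of all genes) had their highest mean at 30, 36 or 48 h. Over the course 59 of the 80 genes differed between time points, where 74.6% of all genes did. The range of the 80 genes between the lowest and the highest mean had a median of 0.96 log2, beside 1.5 over all genes. Of the 80 genes 77 averaged 4 log2 CPM or more, as did 7829 of all 14296. The range was not compared among well expressed genes alone. Hnrnph3, with 0.45, and Hnrnpul1, with 0.46, had the narrowest ranges, and Prpf40b, with 1.83, the widest.

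From 72 to 120 h 2 genes fell and 0 rose, with 3 higher and 28 lower at an unadjusted p under 0.05, beside 3.62% of all genes that fell and 6.59% that rose. Lsm5 went from 5.46 and 6.02 to 4.66 and 4.49, a fall of 1.16 ± 0.20, and Hnrnpc from 9.48 and 10.10 to 8.99 and 8.93, a fall of 0.83 ± 0.13. Neither passed without replicate B of 72 h, which was the higher of its pair in both genes, nor without either library of 120 h. Without replicate A of 72 h, 7 genes fell.

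Between the start and the end of the course the median change of the splicing genes was -0.02, beside -0.02 over all genes. From 0 to 120 h 3 rose and 2 fell, where 12.9% of all genes rose and 10.1% fell. The medians of the subfamilies lay on either side. All 13 Lsm genes had negative changes, with a median of -0.26 and 6 lower at an adjusted p under 0.05, and the LSm2-8 ring had a median of -0.55. Of the Srsf genes 10 of 11 had positive changes, with a median of 0.21 and 2 higher at an adjusted p under 0.05, and the Snrp genes had a median of -0.21. Shares of all genes at an adjusted p under 0.05 are not given for this interval, so these counts cannot be set against them. Hnrnpu went from 9.74 and 9.64 to 10.44 and 10.31, a rise of 0.69 ± 0.10, Hnrnph1 from 8.98 and 8.90 to 9.56 and 9.61, a rise of 0.65 ± 0.11, and Sf3b3 from 8.82 and 8.75 to 9.47 and 9.32, a rise of 0.60 ± 0.10. Snrpa1 fell by 0.86 ± 0.15, from 6.92 and 6.98 to 6.11 and 6.07, and Lsm14b, a translational repressor of P-bodies, by 0.57 ± 0.10, from 6.17 and 6.24 to 5.70 and 5.58. The calls of Hnrnph1, Snrpa1 and Lsm14b were lost with any of the 4 libraries left out, that of Hnrnpu without replicate B of 0 h or replicate A of 120 h, and that of Sf3b3 without either library of 0 h or replicate A of 120 h. Srsf12, the least abundant SR gene, was at 1.40 and 1.63 at 0 h, 2.19 and 2.38 at 72 h and 2.46 and 2.64 at 120 h, and its course was called across time points, while its change of 1.03 to 120 h was not called. Over the same interval the summed level of 5 fibroblast markers went from 24.2 and 28.0 to 102.0 and 91.3 CPM and that of 7 pluripotency markers from 3850 and 4090 to 1830 and 1760 CPM. Of the fibroblast markers 4 rose, while Thy1, the highest of them at 0 h, fell from 4.37 to 1.82 log2 CPM on average. The part of such changes in cell make-up in the levels of the splicing genes was not tested.

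Other genes of the splicing machinery, from lists fixed for this purpose, were counted in the same way. Of 45 further core spliceosome genes, 5 (11.1%) rose and 0 fell from 0 to 6 h, with 27 higher and 3 lower at an unadjusted p under 0.05 and a median change of 0.36, and 9 (20.0%) rose and 0 fell to 24 h, with 27 higher and 1 lower at an unadjusted p under 0.05. Smndc1, a U2 assembly factor, rose from 6.26 to 7.46 log2 CPM on average at 6 h and Bud31 from 5.09 to 6.29, both by 1.2. Of 9 proteins of the minor spliceosome, 1 rose at 6 h, Pdcd7 by 0.51 ± 0.10, and 0 at 24 h, with 1 higher and 2 lower there at an unadjusted p under 0.05. Of 39 other splicing regulators, 14 (35.9%) rose and 2 fell at 6 h, and 11 (28.2%) rose and 1 fell at 24 h. Of all genes 11.8% rose to 6 h and 9.9% to 24 h. The largest rises at 6 h were Sfpq, a paraspeckle protein, with 1.70 ± 0.10, and Mbnl3, which was low, at 0.90 log2 CPM at 0 h, with 1.44 ± 0.25. The 2 that fell were Rbfox3, a neuronal splicing factor that went from 1.11 to -1.52 log2 CPM, and Srpk2, a kinase of SR proteins, by -0.95 ± 0.14. At 24 h Bud31 was higher than at 0 h by 1.03 and Snu13, a U4 and snoRNA binding protein, by 0.90, and among the regulators Mbnl3 was higher by 1.58 and Syncrip by 1.29, while Rbm47 fell by 1.04.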

How the data were processed

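Gene expression was profiled by strand-specific sequencing of poly-A RNA from duplicate cultures at 21 time points. After trimming (Trim Galore), the authors mapped reads to mm10 (TopHat2), counted reads per gene of GENCODE vM2 (HTSeq) and normalized for library size. They deposited voom values, which are log2 CPM. Tool versions are not given in the sources used here. Gene identifiers were looked up in GENCODE vM21. Since the log2 values back-calculate to integers within 2.91e-08 of a read, the reads of each library could be recovered.

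The deposited values were fitted with limma 3.58.1 in R 4.3.3 (lmFit, then eBayes with a trend), with time as a factor of 21 levels over all 42 libraries and 14296 genes, which left 21 residual degrees of freedom. Contrasts were adjusted by Benjamini-Hochberg over all genes, and an adjusted p under 0.0001 was the threshold, the value used in the study. The fit was tested on simulated data. Tables and plots used Python 3.11.15, pandas 2.3.3, numpy 2.4.6 and matplotlib 3.10.9. A level of 3 reads equals 0.0571 to 0.316 CPM, and every value of the 80 genes lay above it. Alternatives were a replicate block, precision weights, quantile normalization, scaling by total reads, log2(CPM + 1), filters at a mean of 0 and 4 log2 CPM, an adjusted p under 0.05 and leaving out each library. The letters A and B name 2 courses of cultures, and over 210 pairs of time points the residuals of like-lettered libraries correlated by 0.0795 on average (68.6% above 0).

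The genes described, the lists and the roles were chosen with earlier results of these data known. Genes were named where they were among the 5 largest rises or falls past the threshold in a comparison with the same sign in both replicates, the most abundant or most changed of a subfamily, or the highest or lowest of a role, and further members are named to complete a complex or a pair. Of the other lists, the largest changes past the threshold are named. Coordinates and upstream sequences are those of RefSeq on GRCm38.p6. Results of 1 of the 80 genes are not reported here by name, and the gene is kept in the counts.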

Additional observations from a re-analysis of the deposited data

How the results depend on the processing

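Of the 99 single changes called, all kept their sign under every alternative. All 99 stayed past the threshold with the replicate block, precision weights, log2(CPM + 1) and both filters, 76 with total read scaling and 58 with quantile normalization. Leaving out a library lost the call in 205 of 396 refits, in which the lone library of a time point is assumed to vary like the others. The cause of the losses by scaling was not tested. With the replicate block (A and B paired as courses), 2 genes rose from 6 to 24 h in place of 1, and no other count moved by over 1.5 times.

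In the order lower and higher, the counts at an adjusted p under 0.05 were 5 and 41 from 0 to 6 h, 4 and 6 from 6 to 12 h, 4 and 47 from 0 to 12 h, 4 and 50 from 0 to 18 h, 3 and 43 from 0 to 24 h, 4 and 11 from 6 to 24 h, 2 and 5 from 24 to 48 h, 27 and 2 from 48 to 72 h, 24 and 1 from 72 to 120 h, and 12 and 11 from 0 to 120 h. With total read scaling, 4 genes were lower from 0 to 6 h, 0 lower and 2 higher from 6 to 12 h, 2 lower from 0 to 12 h, 13 higher from 0 to 24 h, 1 lower and 2 higher from 6 to 24 h, 0 lower from 48 to 72 h and 1 higher from 72 to 120 h. With quantile normalization, 0 were lower from 6 to 12 h, 2 lower and 15 higher from 0 to 12 h, 9 higher from 0 to 18 h, 11 higher from 0 to 24 h, 1 lower from 6 to 24 h, 0 lower from 48 to 72 h and 1 higher from 72 to 120 h. Without 42, 72, 90 and 96 h, chosen after the values were seen, the lower and higher counts were 4 and 30 from 0 to 6 h, 2 and 3 from 6 to 12 h, 3 and 35 from 0 to 12 h, 2 and 33 from 0 to 18 h, 2 and 32 from 0 to 24 h, 3 and 4 from 6 to 24 h, and 3 and 5 from 0 to 120 h.

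Leaving out each library in turn left 1 gene lower and 10 to 12 higher from 0 to 6 h, 0 lower and 0 to 1 higher from 6 to 12 h, 14 to 15 higher from 0 to 12 h, 0 to 1 lower and 6 to 8 higher from 0 to 18 h, 8 to 10 higher from 0 to 24 h, 0 higher from 6 to 24 h, 0 to 1 lower from 48 to 72 h, 0 to 7 lower from 72 to 120 h, and 0 lower and 0 to 2 higher from 0 to 120 h. The effect of depth on these counts was not tested.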
